A study of Mus musculus with 2 samples.

Results

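The genes described here are 50 genes of the germ line, which act in the specification of germ cells, in meiosis or in the piRNA pathway. They were chosen by gene name, with earlier results of these data known. All non-control probes with one of these names were taken, which gave 79 probes. All 50 names were found among 33012 gene names on the array. The samples were mouse 46C embryonic stem cells, a line with a GFP reporter at the Sox1 locus, grown as floating aggregates in a medium with serum replacement and collected at day 5 of neural differentiation. Their genotype was WT in the first group and KO-Linc1548 in the second, where Linc1548 is a long intergenic non-coding RNA. There was 1 array per group, from total RNA labelled with Cy3, and without replicates no test was possible. Whether the knockout cells came from 1 clone or several is not given in the sources used here. The array has 0 probes named Linc1548, and the labels were not checked against that RNA. The number of arrays limits the precision, and with bulk RNA a larger share of cells that express a gene and more RNA per cell cannot be told apart.

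As background, mammalian germ cells are set aside in the early embryo, when signals act on the epiblast and switch on a small group of transcription factors and RNA-binding proteins. They later enter meiosis, in which chromosomes are built on a protein axis, broken, repaired against the homologous chromosome and held together by the synaptonemal complex. The piRNA pathway protects the germ line from transposons: PIWI proteins carry small RNAs, and Tudor-domain proteins gather them in granules beside mitochondria. In other tissues many of these genes are silent, because DNA methylation and the Polycomb complex PRC1.6, which binds DNA through E2F6 and through MGA and MAX, act on their promoters. Embryonic stem cells express part of the set at a low level. Promoters are printed here for a few members, with the letters TCCCGC (the core of the E2F6 motif) or its complement and the E-box CACGTG (bound by MGA and MAX) in capitals.

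Most of these genes gave more signal on the knockout array. Processed signals were divided by the 75th percentile of each array and put on a common scale, and they are called signals below. A probe counted as measured where the software called it well above background on both arrays, and a gene's value is the median log2 difference (KO-Linc1548 minus WT) over its measured probes. Of the 50 genes, 35 were measured on both arrays, 9 were well above background on the knockout array alone, 2 on the wild type array alone and 4 on neither. Among the 35, the knockout signal was higher by 2-fold or more for 24 and lower by as much for 0. Of all 18690 measured genes 11.5% passed that limit upwards and 8.81% downwards, and 56.6% of the calls were thus upwards. The median over the 35 was 1.98 on the log2 scale, against 0.10 over all measured genes. Since the genes were chosen with earlier results of these data known, these contrasts are a description and not an independent test. Centring on spike-in controls moved the median of all genes by −0.39, and 7.44% of all genes were then past 2-fold upwards and 16.0% downwards (31.8% of calls upwards). Of the 24 genes, 21 were still past 2-fold in that case, and again 0 of the 35 were lower. Probes printed several times on an array show the noise of a spot, which was 0.096 for a log2 difference; this does not measure the spread between cultures. The plot of signals by probe shows each pair of values.

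**Figure D1:**
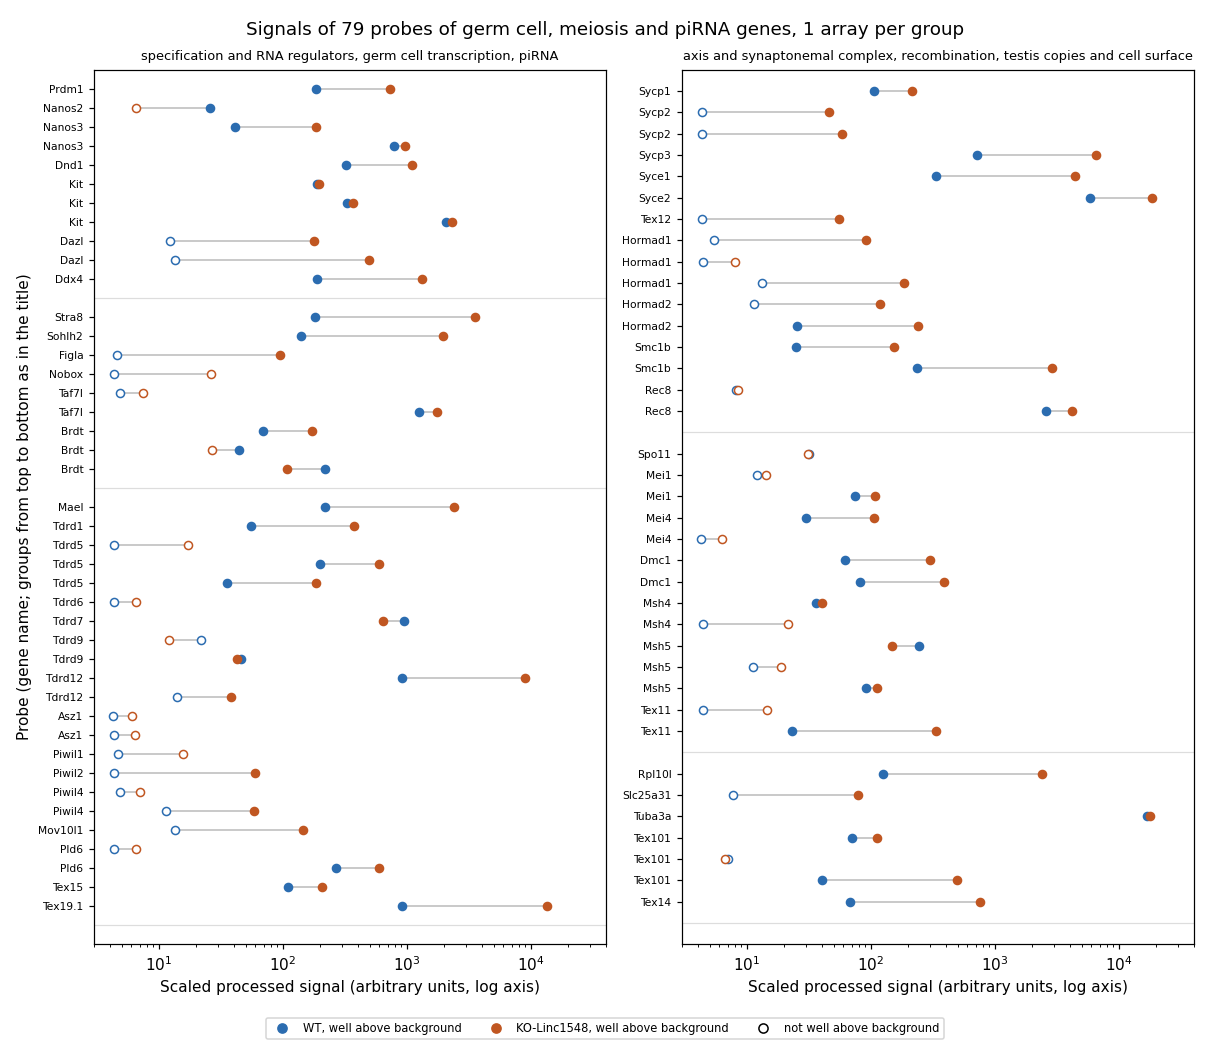
Scaled signal (log axis) of each of the 79 probes on the WT array (blue) and the KO-Linc1548 array (orange), joined by a line; filled points are well above background and open points are not. The orange points lie to the right for most probes, with wide gaps for Dazl, Stra8 and Rpl10l, while the probes of Kit and Tuba3a nearly coincide.

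Among the regulators of germ cell fate, Dazl, Ddx4, Prdm1 and Dnd1 were higher in the knockout, while Nanos2, Nanos3 and Kit were less so or not. Dazl, an RNA-binding protein that licenses germ cells for meiosis, read 12.3 and 13.4 with its probes on the wild type array, not well above background, and 179 and 494 on the knockout array. Against the lowest level that counts as well above background, the differences were at least 8.41-fold and at least 23.2-fold. Its probes lie on chromosome 17 (mouse build mm9), the brighter at 50418923 to 50418982. Ddx4, the RNA helicase of germ granules, read 187 in the wild type and 1336 in the knockout, a log2 difference of 2.84 (7.15-fold). Both genes were thus clearly brighter in the knockout, Dazl from a level that the wild type array did not resolve. The Ddx4 promoter is shown because it holds both motifs. It is given, like all promoters here, as the 250 bases before the most upstream start that RefSeq lists for the gene on GRCm38.p6.
Ddx4, chr13:112652311-112652560, minus strand: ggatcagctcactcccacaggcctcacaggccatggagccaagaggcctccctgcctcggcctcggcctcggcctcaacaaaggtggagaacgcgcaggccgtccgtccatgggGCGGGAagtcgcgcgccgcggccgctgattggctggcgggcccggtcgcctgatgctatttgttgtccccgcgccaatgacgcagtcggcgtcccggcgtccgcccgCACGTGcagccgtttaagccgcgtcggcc

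Prdm1, a transcriptional repressor needed to specify primordial germ cells, read 184 and then 733 (log2 2.00, 3.99-fold), and Dnd1, an RNA-binding protein of their survival, 321 and 1104 (1.78, 3.44-fold). Nanos3, a translational repressor of primordial germ cells, was less settled. Its dimmer probe read 41.1 in the wild type and 186 in the knockout (2.18), and its brighter probe 783 and 963 (0.30), so the gene value of 1.24 depends on the probe and was 0.85 with spike-in centring. Kit, the receptor for stem cell factor, which migrating germ cells need but other lineages use as well, read 2062 and 2316 with its brightest probe. The 3 Kit probes gave 0.07, 0.17 and 0.17, and the gene value turned to −0.23 with spike-in centring. Nanos2, a regulator of male germ cells, read 25.9 in the wild type and 6.52 in the knockout; it was well above background in the wild type alone, and no fold is given since 25.9 is under the lowest resolved level of the knockout array (30.5). In this group of 7, therefore, 4 genes were at least 2-fold higher, Dazl was seen in the knockout alone, and Kit and Nanos2 were not higher by that much.

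Germ cell transcription regulators split into strong and flat members. Stra8, the factor induced by retinoic acid that starts meiosis, read 182 in the wild type and 3538 in the knockout, a log2 difference of 4.28 (19.5-fold), the largest among the 35; 28 of the 18690 measured genes, itself included, had a difference as high. Its probe lies on chromosome 6 at 34889231 to 34889290 (mm9). Sohlh2, a basic helix-loop-helix factor of spermatogonia and young oocytes, read 139 and 1947 (3.81, 14.0-fold). Figla, an oocyte factor that drives zona pellucida genes, read 4.55 in the wild type, at background, and 95.5 in the knockout, at least 4.48-fold. These genes were low or unseen in the wild type and clearly seen in the knockout. Taf7l, a germ cell subunit of the general factor TFIID, read 1249 in the wild type and 1744 in the knockout (0.48). Brdt, a bromodomain protein of spermatocytes, had measured probes in opposite directions, at 68.8 and 171 (1.32) nearer the 5′ end and at 219 and 108 (−1.02) nearer the 3′ end. Its remaining probe read 44.6 and 26.6, well above background in the wild type alone, and at least 1.46-fold lower in the knockout. Brdt thus has no settled direction. Nobox, an oocyte homeobox factor, was not well above background on either array, at 4.33 and 26.2. The Stra8 promoter is shown as that of the member with the largest difference; it holds neither motif, and no letter is in capitals.
Stra8, chr6:34920698-34920947, plus strand: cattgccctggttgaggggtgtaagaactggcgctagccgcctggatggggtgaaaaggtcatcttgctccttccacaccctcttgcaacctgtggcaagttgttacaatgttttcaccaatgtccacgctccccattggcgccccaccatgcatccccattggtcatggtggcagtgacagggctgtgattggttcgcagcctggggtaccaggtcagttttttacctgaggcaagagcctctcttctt

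**Figure D2:**
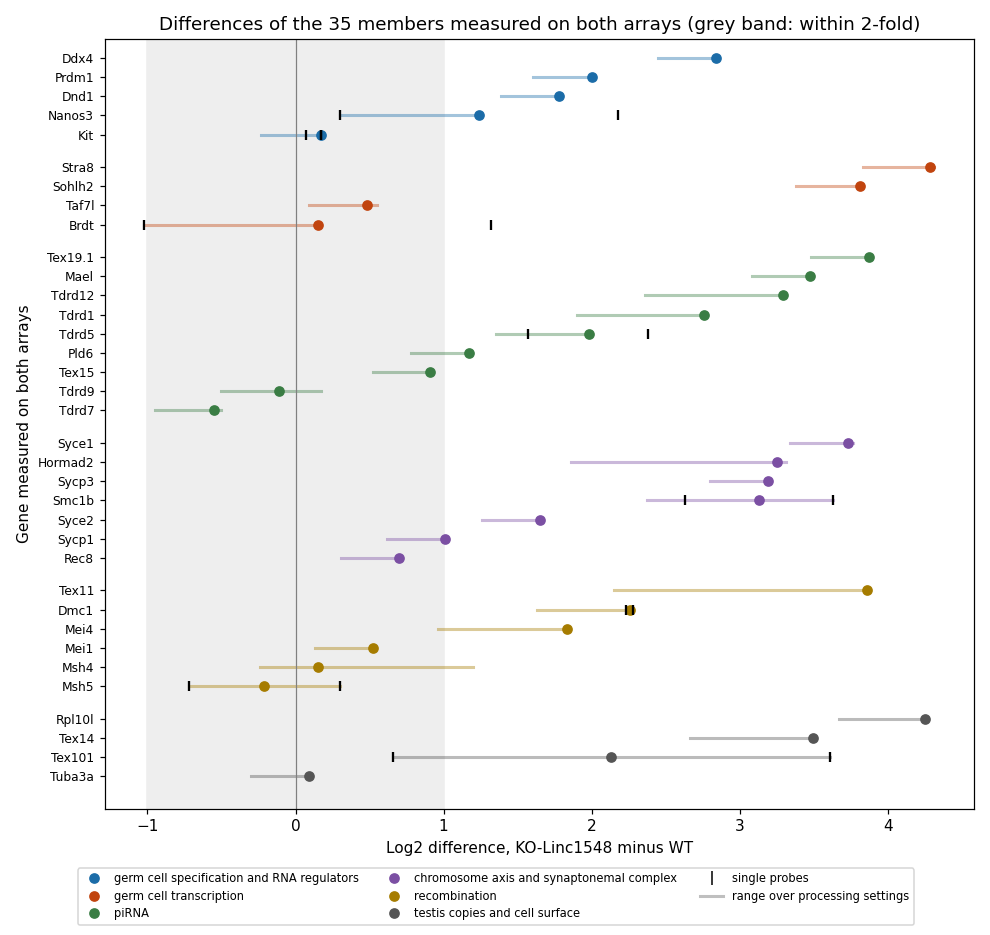
Log2 difference, KO-Linc1548 minus WT, of the 35 genes measured on both arrays, by role; points are gene values, ticks single probes of genes with several, pale lines the range over processing settings, and the grey band differences within 2-fold. Stra8 (4.28) and Rpl10l (4.25) lie farthest to the right and Tdrd7 (−0.55) farthest to the left, inside the band.

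The piRNA pathway was divided, with higher signals for some granule proteins and PIWI proteins that were resolved on the knockout array alone or not at all. Of 15 genes, 6 were at least 2-fold higher, 3 within 2-fold, 3 seen on the knockout array alone and 3 on neither. Tex19.1, a mammal-specific protein that restrains retrotransposons in germ cells and placenta, read 918 in the wild type and 13461 in the knockout (3.87, 14.7-fold); its probe lies on chromosome 11 at 121009485 to 121009544 (mm9). Mael, a granule protein of piRNA production, read 218 and 2416 (3.47, 11.1-fold). Tdrd12, a Tudor-domain helicase that loads secondary piRNAs, read 912 and 8893 (3.29, 9.75-fold) with its brighter probe; its other probe, from another transcript model, read 14.1 and 37.9, the latter alone well above background. Each of these 3 was clearly resolved on both arrays and several-fold higher in the knockout. Tdrd1, a scaffold that binds PIWI proteins, read 55.7 and 378 (2.76, 6.80-fold, or 1.90 with normexp). Tdrd5, a granule protein of spermatids and prospermatogonia, gave 1.57 and 2.38 with its measured probes (gene value 1.98, or 1.35 with normexp). Pld6, the mitochondrial nuclease that cuts piRNA precursors into intermediates, read 266 and 599 (1.17) and was within 2-fold with spike-in centring (0.78).

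No PIWI protein was well above background in the wild type. Piwil2, the partner of primary piRNAs in fetal testis, read 4.32 in the wild type, at background, and 59.1 in the knockout, at least 2.77-fold. Piwil4, the nuclear PIWI protein, read 11.4 and 58.6 with the probe that was seen in the knockout alone, at least 2.75-fold, while its other probe was at 4.90 and 7.05, on neither array above background. Piwil1, which acts in meiotic and later spermatocytes, was on neither array well above background (4.66 and 15.5). The helicase Mov10l1, which feeds precursors to the pathway, read 13.6 and 144, at least 6.74-fold higher in the knockout. Tdrd6 (4.35 and 6.52) and both probes of Asz1 (from 4.26 to 6.37), a mitochondrial anchor of the granules, gave no signal above background. For comparison, the median signal of all 20251 probes well above background on neither array was 4.63 in the wild type and 6.72 in the knockout, and the median log2 difference over those probes was 0.55.

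Tdrd7 and Tdrd9 were not higher. Tdrd7, which also acts in the lens, read 943 in the wild type and 642 in the knockout (−0.55), lower under each of the 9 alternative settings (−0.95 to −0.50). Tdrd9, a Tudor helicase, read 45.7 and 42.3 (−0.11, or 0.17 with normexp background correction). Tex15, a protein of meiotic repair and of piRNA-directed silencing, read 110.2 and 208 (0.91, within 2-fold). Promoters of this group are shown for Tex19.1, which was among the 3 largest differences and holds an E2F6 motif, for Mael, which holds both motifs, and for the lowest members Tdrd7 (neither motif at this start) and Tdrd9 (the E-box at 165 and 95 bases before the start).
Tex19.1, chr11:121145893-121146142, plus strand: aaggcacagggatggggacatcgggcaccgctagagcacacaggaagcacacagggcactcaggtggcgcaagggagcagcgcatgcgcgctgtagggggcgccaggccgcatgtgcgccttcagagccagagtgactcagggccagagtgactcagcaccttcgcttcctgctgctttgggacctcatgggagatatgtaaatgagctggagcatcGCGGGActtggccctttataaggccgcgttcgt
Mael, chr1:166238745-166238994, minus strand: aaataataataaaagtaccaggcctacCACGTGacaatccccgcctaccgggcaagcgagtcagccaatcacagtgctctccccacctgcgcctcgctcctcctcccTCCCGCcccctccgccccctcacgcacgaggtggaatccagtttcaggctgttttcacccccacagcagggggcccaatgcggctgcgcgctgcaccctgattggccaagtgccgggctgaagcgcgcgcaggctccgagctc
Tdrd7, chr4:45965085-45965334, plus strand: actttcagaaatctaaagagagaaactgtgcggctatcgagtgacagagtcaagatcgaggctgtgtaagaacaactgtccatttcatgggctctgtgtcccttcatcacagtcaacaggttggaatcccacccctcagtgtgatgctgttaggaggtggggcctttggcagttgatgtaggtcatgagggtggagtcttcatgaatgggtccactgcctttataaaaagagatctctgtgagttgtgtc
Tdrd9, chr12:111971309-111971558, plus strand: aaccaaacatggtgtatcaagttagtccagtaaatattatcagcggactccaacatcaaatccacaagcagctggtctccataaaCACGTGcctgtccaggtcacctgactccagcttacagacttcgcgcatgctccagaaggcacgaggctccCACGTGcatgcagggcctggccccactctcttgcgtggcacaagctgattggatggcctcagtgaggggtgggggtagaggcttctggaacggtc

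Genes of the chromosome axis and the synaptonemal complex were the most uniform group. Of 10, 6 were at least 2-fold higher, 3 were seen on the knockout array alone and Rec8 was within 2-fold. Sycp3, the main protein of the lateral element, read 722 in the wild type and 6580 in the knockout (3.19, 9.11-fold). Syce1, of the central element, read 333 and 4435 (3.73, 13.3-fold), and Syce2, its partner there, 5886 and 18522 (1.65, 3.15-fold). Sycp1, the transverse filament that ties the lateral elements together, read 106 and 213; its log2 difference of 1.01 lay at the 2-fold limit and was under it with 5 of the 9 alternatives, down to 0.62. The structural genes were thus all on the higher side, but the filament gene only just so.

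Sycp2, Tex12 and Hormad1 were not well above background in the wild type. Sycp2, the lateral element partner of Sycp3, read 4.34 and 4.37 with its probes in the wild type and 46.0 and 58.2 in the knockout, at least 2.16-fold and 2.73-fold. Tex12, of the central element, read 4.36 and 55.5, at least 2.61-fold. Hormad1, a HORMA-domain protein that marks unpaired axes, read 5.39 and 91.3 with one probe and 13.3 and 184 with another, at least 4.28-fold and 8.62-fold; the remaining probe, which overlaps the first on the genome, was at background on both arrays (4.44 and 7.96). Hormad2, its paralogue, read 25.2 and 239.6 (3.25, 9.52-fold) with a wild type signal close to background, which leaves that fold uncertain (1.86 with normexp), and its other probe read 11.5 and 119, at least 5.58-fold. Smc1b, the meiotic cohesin ring subunit, read 234 and 2903 with its brighter probe (3.63) and 25.0 and 155 with the other (2.63); the gene value of 3.13 was 2.37 with normexp. Rec8, the meiotic cohesin that holds sister chromatids, read 2591 in the wild type and 4218 in the knockout (0.70). The cohesin genes therefore differed in size: the median over the Smc1b probes was 8.75-fold, whereas Rec8 was within 2-fold. Promoters are shown for Hormad1, Sycp3 and Tex12 because each holds both motifs.
Hormad1, chr3:95559427-95559676, plus strand: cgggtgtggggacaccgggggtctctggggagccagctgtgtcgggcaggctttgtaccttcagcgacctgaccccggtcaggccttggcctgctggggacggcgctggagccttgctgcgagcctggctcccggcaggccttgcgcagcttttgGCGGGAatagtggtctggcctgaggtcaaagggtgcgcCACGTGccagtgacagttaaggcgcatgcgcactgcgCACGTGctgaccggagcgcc
Sycp3, chr10:88459337-88459586, plus strand: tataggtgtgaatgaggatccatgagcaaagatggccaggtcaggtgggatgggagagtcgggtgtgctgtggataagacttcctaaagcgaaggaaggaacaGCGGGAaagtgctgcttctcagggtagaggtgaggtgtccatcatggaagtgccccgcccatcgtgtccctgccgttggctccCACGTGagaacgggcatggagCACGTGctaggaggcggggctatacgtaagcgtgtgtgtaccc
Tex12, chr9:50561269-50561518, minus strand: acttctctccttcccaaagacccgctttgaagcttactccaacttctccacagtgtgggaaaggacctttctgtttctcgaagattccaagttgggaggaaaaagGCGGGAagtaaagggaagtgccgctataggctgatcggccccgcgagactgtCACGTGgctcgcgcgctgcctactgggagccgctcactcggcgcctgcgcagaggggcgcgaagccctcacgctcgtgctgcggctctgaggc

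Genes of meiotic recombination were mixed. Dmc1, the strand exchange protein of meiosis, gave the same difference with both probes, at 62.3 and 302 (2.28) and at 82.4 and 388 (2.23), or 1.63 for the gene with normexp. Tex11, an X-linked crossover factor, read 23.2 in the wild type, close to background, and 337 in the knockout (3.86), so its fold of 14.5 is uncertain; it was 2.15 with normexp. Mei4, needed for double-strand breaks, read 29.7 and 106 (1.83), and 0.96 with normexp. These 3 were at least 2-fold higher, but the other probes of Tex11 (4.41 and 14.4) and Mei4 (4.30 and 6.31) were well above background on neither array. Spo11, the enzyme that makes the breaks, read 31.8 and 30.9, and the knockout value was not well above background, so its level there is not resolved. Mei1, another break factor, read 74.5 and 107 (0.52). The crossover partners Msh4 (36.3 and 40.3, log2 0.15) and Msh5 (−0.72 and 0.30 with its probes) were within 2-fold, and both changed sign between settings; Msh4 passed 2-fold (1.20) where dim probes were kept. Thus 3 of the 7 genes, Dmc1, Tex11 and Mei4, were higher by that much. The Msh5 promoter, of the second lowest member, holds an E2F6 motif.
Msh5, chr17:35046623-35046872, minus strand: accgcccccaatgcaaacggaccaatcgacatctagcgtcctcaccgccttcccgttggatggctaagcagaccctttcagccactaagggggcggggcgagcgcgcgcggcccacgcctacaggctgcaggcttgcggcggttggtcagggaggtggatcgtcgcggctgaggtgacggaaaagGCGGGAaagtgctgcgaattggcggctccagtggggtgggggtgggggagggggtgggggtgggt

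Testis copies of ubiquitous genes and germ cell surface or bridge proteins made up the last group. Rpl10l, the autosomal copy that stands in for the X-linked ribosomal gene Rpl10 when the X chromosome is silenced in meiosis, read 125 in the wild type and 2385 in the knockout (4.25, 19.0-fold). Its probe lies on chromosome 12 at 67384868 to 67384927 (mm9); no other probe on the array shares 25 bases with it, but it was not compared with the Rpl10 transcript. Tex14, a protein of the bridges between germ cells, read 68.2 and 765 (3.49, 11.2-fold, or 2.66 with normexp). Slc25a31, the ADP/ATP carrier of germ cells, read 7.70 and 78.6, at least 3.69-fold higher in the knockout. Tex101, a surface protein of germ cells, disagreed between its measured probes, at 0.66 and 3.61, and its gene value of 2.13 was 1.46 with normexp. Tuba3a, an alpha-tubulin, read nearly the same on both arrays, at 16784 and 17853 (0.09, −0.30 with spike-in centring). Its probe was not compared with the transcripts of other alpha-tubulins, so this signal may not come from Tuba3a alone. The group thus held one of the largest differences of the 35 and one of the smallest. The Rpl10l promoter, of the second highest member, holds an E2F6 motif close to its start.
Rpl10l, chr12:66284402-66284651, minus strand: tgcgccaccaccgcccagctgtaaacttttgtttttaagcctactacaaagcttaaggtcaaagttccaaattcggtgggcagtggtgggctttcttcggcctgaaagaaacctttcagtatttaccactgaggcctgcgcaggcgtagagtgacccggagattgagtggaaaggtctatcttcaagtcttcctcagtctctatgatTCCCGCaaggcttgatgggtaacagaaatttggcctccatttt

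**Figure D3:**
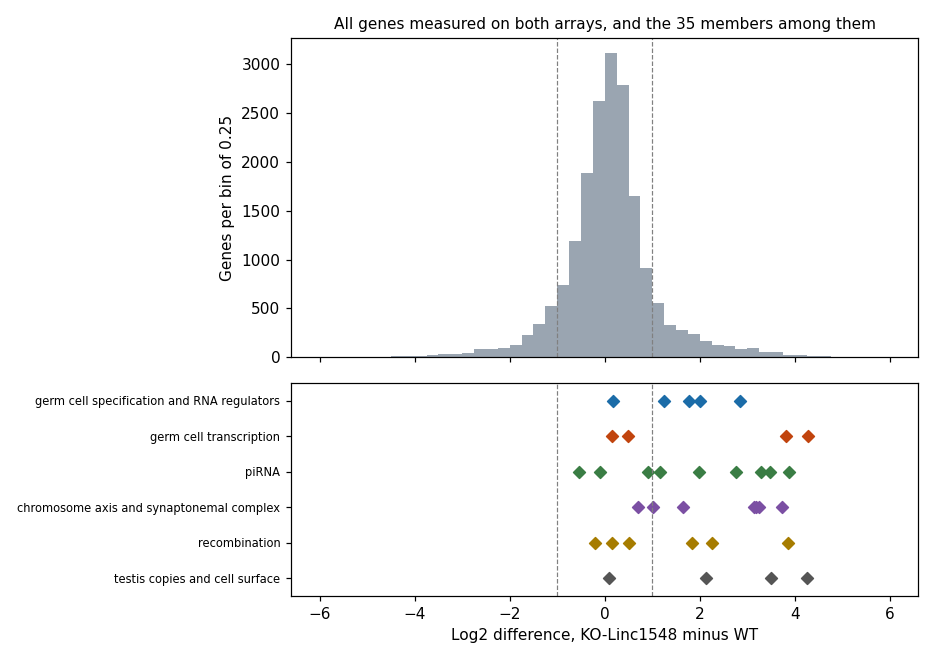
Histogram of the log2 difference, KO-Linc1548 minus WT, of all 18690 genes measured on both arrays (top, bins of 0.25) and the 35 genes described here by role (bottom, 1 diamond each); dashed lines mark 2-fold. Most genes lie near 0, where the median is 0.10, while 24 of the 35 lie to the right of the upper line.

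Genes seen on a single array were read in the same way over the whole array. Of 14322 genes not measured on both arrays, 6.66% were well above background on the knockout array alone and 11.1% on the wild type array alone; 4.91% were on the knockout array alone with a bound of at least 2-fold, and 2.60% on the wild type array alone with such a bound. Of the 15 germline genes not measured on both, 9 were on the knockout array alone, and all 9 had a median bound of at least 2-fold; with normexp background correction 5 genes had such a bound. The 2 on the wild type array alone, Nanos2 and Spo11, had none of that size.

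Further genes of the same pathways, from lists that hold none of the 50, also included both higher and flat genes. These lists and those below were likewise chosen with earlier results of these data known, so their counts are no independent test. Of 17 further piRNA genes on the array, 14 were measured, and 9 of these passed 2-fold upwards and 0 downwards (median 2.53). Morc1, a repressor of transposons in male germ cells, read 386 in the wild type and 6044 in the knockout (3.97), and Fkbp6, a chaperone partner of the pathway, gave a median of 3.68 (12.8-fold) over its probes. Tdrkh, the Tudor protein that anchors PIWI proteins to mitochondria (−0.84, and at least 2-fold lower with spike-in centring), and Mybl1, the transcription factor of pachytene piRNA loci (1033 and 827, −0.32), were the lowest. Of 30 further meiosis genes, 20 were measured, 13 at least 2-fold higher and 0 lower (median 1.46). Rec114, a partner of Mei4 (3.65), and Syce3, of the central element (309 and 3502, 3.50), were the highest, and Prdm9, which places the breaks (−0.25), and Psmc3ip, a helper of strand exchange that other cells also use (−0.22), the lowest. With a signal of at least 100 required on both arrays, 14 were measured and 8 were higher.

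Other germline genes whose promoters are methylated in somatic cells had 10 measured members, 6 at least 2-fold higher and 0 lower (median 1.31). Cyct, the testis cytochrome c, read 86.1 and 1643 (4.25), and Tuba3b, a relative of Tuba3a, read 42.3 and 525 (3.63), whereas Tuba3a was within 2-fold; binding of either probe to the other's transcript was not tested. Dkkl1, an acrosomal protein (265 and 144, −0.87), and Xlr (459 and 347, −0.40) were the lowest. Among 18 measured genes of primordial germ cells that pluripotent cells share, or that signal to them, 9 were at least 2-fold higher and 2 lower (median 0.98), or 5 lower with spike-in centring. Utf1, a chromatin factor (3.28), and Eomes, a T-box factor (89.1 and 831, 3.22), were the highest; Cxcr4, the receptor that guides migrating germ cells (842 and 163, −2.37), and Kitl, the ligand of Kit (−1.37), the lowest. Ligand and receptor therefore differed, with Kitl lower and Kit within 2-fold.

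Repressors of germline genes were mostly within 2-fold. Of 26, all measured, 2 were at least 2-fold higher and 1 lower (median 0.20), and 23 were within 2-fold; 3 were lower with median centring and 4 with spike-in centring. Dnmt3b, a DNA methyltransferase of the epiblast, was 4.19-fold higher (2.07) and Tet1 4.06-fold higher (2.02). Tet1 oxidises methylated cytosine, which works against methylation, so it is in this list but is not a repressor in the same sense. Ring1, a Polycomb ubiquitin ligase, read 842 and 302 (−1.48), and E2f6 itself 9310 and 4684 (−0.99), just inside the limit. The maintenance pair Dnmt1 (2180 and 1907, −0.19) and Uhrf1 (0.26), and the PRC1.6 subunits Mga (0.56), Max (0.26), L3mbtl2 (0.58) and Pcgf6 (0.34), named for their part in this silencing after their values were seen, were within 2-fold. E2f6 and Ring1, given above, also belong to this complex and were lower. Its further genes in the list included Yaf2 (−0.92), Rnf2 (−0.10), Rybp (0.13) and Cbx3 (0.36), so its genes did not all read alike.

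**Figure D4:**
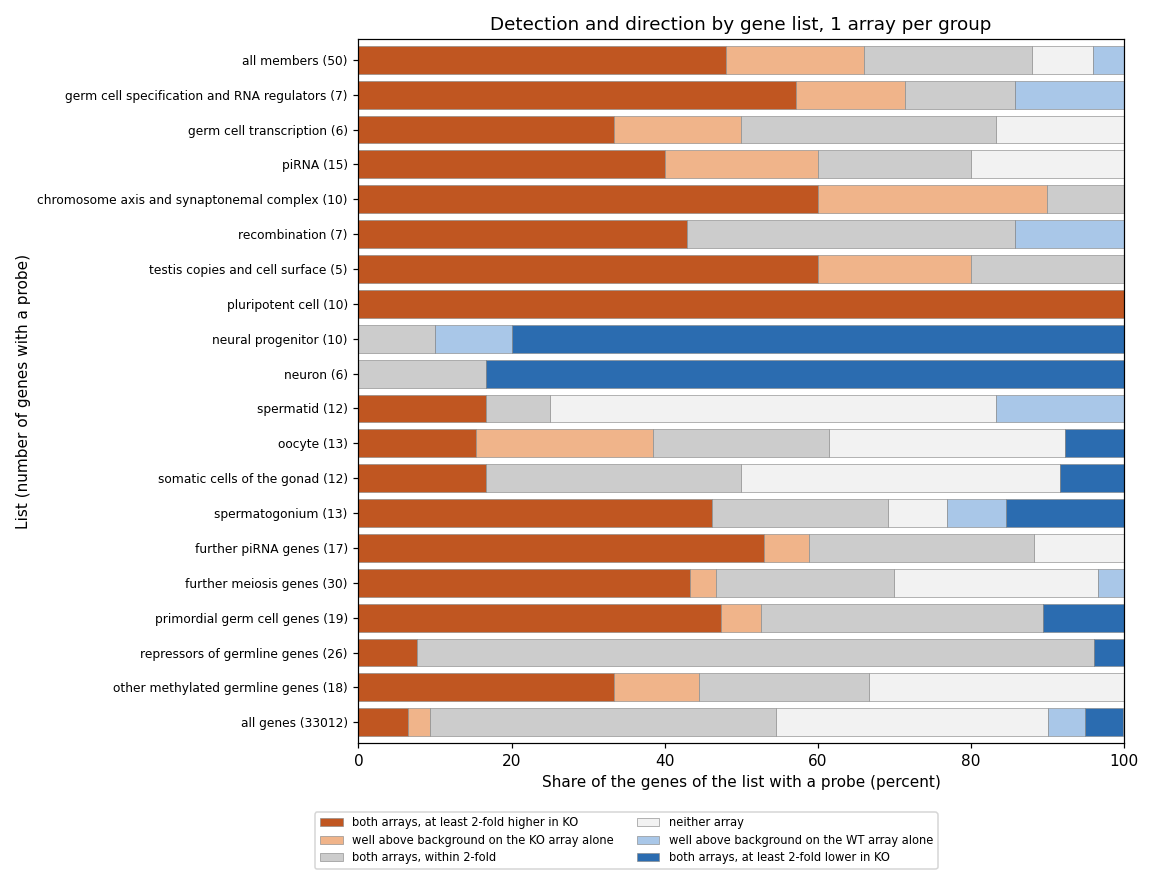
Share of the genes with a probe in each list (percent) by detection and direction; orange shades mark genes higher in, or seen only in, the KO-Linc1548 array, blue shades the reverse, and greys genes within 2-fold or on neither array. All 10 pluripotent cell markers are at least 2-fold higher. Of 10 axis genes 6 are, and 3 more are on the KO-Linc1548 array alone with a bound of at least 2-fold. Of 12 spermatid markers 7 are on neither array. A few genes of the whole array with probes seen on opposite arrays are not drawn.

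Markers of other cell types also differed between the arrays. All 10 pluripotent cell markers were at least 2-fold higher in the knockout (log2 1.99 to 4.54, median 3.19), among them Pou5f1 (2437 and 9682), while 8 of 9 measured neural progenitor markers (−4.78 to −0.32) and 5 of 6 neuron markers were at least 2-fold lower. Their part in the germline result was not tested. Of 12 spermatid markers of late germ cells 7 were on neither array, and the protamine genes Prm1 and Prm2 were resolved in the wild type but not in the knockout. The bounds of these protamine genes were 0.806 and 0.955, under 1, so a lower level in the knockout is not shown. The 2 spermatid markers that passed 2-fold were Ldhc, the testis lactate dehydrogenase (1.75), and Tnp1, a transition protein (1.22), and with spike-in centring 1 did. Of 13 oocyte markers 4 were on neither array and 3 on the knockout array alone, each of the latter with a bound of at least 2-fold. Among the 6 measured, 2 were at least 2-fold higher, led by Zp3, a zona pellucida protein (63.0 and 464, 2.88). Only 1 was lower, Gdf9, an oocyte growth factor (257 and 61.8, −2.05), and 3 were within 2-fold. With spike-in centring 1 was higher and 2 were lower. Spermatogonium markers went both ways, with 6 of 11 at least 2-fold higher (Rhox13, 131 and 1672, 3.67) and 2 lower (Zbtb16, −2.44). Of 12 markers of gonadal somatic cells 5, Amh and Fshr among them, were on neither array. At least 2-fold higher were 2, led by Cyp11a1 (73.9 and 617, 3.06), and 1 was lower. The other 4 were within 2-fold, among them Foxl2, bright on both arrays (23913 and 24338, 0.03).

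Promoters were described for the 44 members that RefSeq's table of GRCm38.p6 lists, with 54 starts in all. TCCCGC on either strand stood in the 250 bases before at least 1 start of 16 genes (36.4%), against 18.8% of all 27025 genes in that table. The E-box CACGTG, which reads the same on both strands, stood before 15 genes (34.1%), against 6.86% of all genes, and both motifs before 6 (13.6%), against 1.69%; the motifs do not overlap in their letters. Promoters of members were richer in CpG than most, with a median of 5.6 CpG per 100 bases against 2.4, and among all genes with a promoter of at least 4 CpG per 100 bases the shares were 39.3% for the E2F6 letters, 10.2% for the E-box and 3.89% for both. With the same minimum, 34 members had such a promoter, and 14 of them (41.2%) held the E2F6 letters, 14 (41.2%) the E-box and 6 (17.6%) both. By role, the E-box stood before 5 of 10 axis genes, 6 of 12 piRNA genes and 0 of 5 recombination genes. With a share of 6.86% over all genes, 5 genes are too few to set the last group apart from all genes. The recombination genes Spo11 and Tex11 have no promoter entry.

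The letters occurred in members of either outcome. Of 30 members at least 2-fold higher or seen in the knockout alone, 12 (40.0%) held the E2F6 letters, 11 (36.7%) the E-box and 6 both: Ddx4, Hormad1, Mael, Syce2, Sycp3 and Tex12. Of the 14 other members, 4 (28.6%) held the first, 4 (28.6%) the second and 0 both. Stra8, Sohlh2 and Dazl, each with a large difference, held neither. These are matches of letters in a fixed window, without a test, and no binding or methylation was measured.

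**Figure D5:**
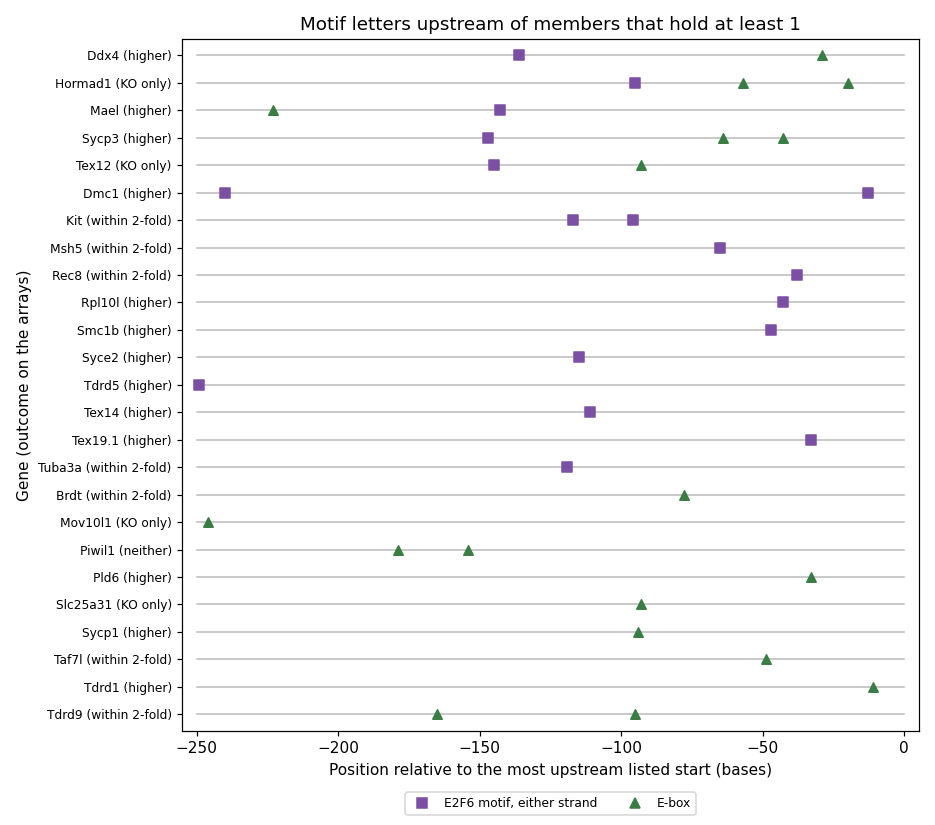
Position of the E2F6 letters (squares, either strand) and of the E-box (triangles) in the 250 bases before the most upstream listed start, in bases, for members that hold at least 1; the outcome on the arrays is in brackets. The first 5 rows hold both motifs at this start. Each of these genes was at least 2-fold higher or seen on the KO-Linc1548 array alone, as were 30 of all 44 members with a promoter entry.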

How the data were processed

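Each sample is 1 one-colour Agilent array. Per the file headers, Feature Extraction 10.7.1.1 gave a processed intensity, background-subtracted and corrected for trends within the array, with no scaling between arrays; the slide and the scan were shared by both arrays, and probe positions are on mm9. Non-control spots (59305 of 62976) without outlier flags were averaged per probe on the log2 scale and centred on the 75th percentile of each array (864 in the wild type, 652 in the knockout). A probe was well above background where the software said so in a share of 0.5 or more of its spots; no spot was saturated. That left 31536 of 56605 probes measured on both arrays. Where a probe was seen on one array alone, its fold is a bound against the higher of the lowest resolved signal of the other array (21.3 in the wild type, 30.5 in the knockout) and the probe's own signal there. Probes named by a locus (4450) were left out of the gene counts. With 1 array per group there was no test; 2-fold was the limit.

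Alternatives were other scalings (quantile, loess, spike-in, median), normexp with an offset of 50 on the deposited mean and background intensity values (limma 3.58.1), other filters, the brightest probe, and names by RefSeq accession. In simulated arrays with spot noise alone, the steps recovered changes set past the 2-fold limit by more than that noise. Spread between cultures and detection near background were not simulated, so the recovery does not bear on them. Every member is named in the text, with signals or differences; of other lists the 2 highest and 2 lowest genes were the rule, and further genes were named after their values were seen, among them the cell type markers. The members and lists were chosen with earlier results of these data known. Promoters are RefSeq's, printed for the 3 highest and 3 lowest members with an entry and those that hold both motifs at the most upstream start, which Syce2 does not; 6 members have no entry there: Tdrd6, Piwil2, Spo11, Tex15, Tex11 and Dnd1. Probe sequences are not printed, since coding and untranslated bases could not be separated here.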

Additional observations from a re-analysis of the deposited data

How the results depend on the processing

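The count of members at least 2-fold higher stayed between 16 and 34 over the 9 alternatives, against 24: it was 20 with normexp, 16 of the 25 members with a signal of at least 100 on both arrays, and 34 of 50 with no filter on dim probes, where values at background enter. The count at least 2-fold lower was 1 in place of 0 without the filter, with the signal minimum of 100 and with the brightest probe. The single gene was Nanos2 in the first case and Brdt in the others. The median over members was 1.58 with spike-in centring, 1.87 with median centring, 1.60 with normexp, 1.65 with the signal minimum and 1.83 with the brightest probe, against 1.98. Of the 24, 19 were at least 2-fold higher under each alternative that measured them; the others were Nanos3 (0.30 with the brightest probe), Pld6, Sycp1, Mei4 (0.96 with normexp) and Tex101 (0.66 without the filter). Of the other 11, Brdt (−1.02) and Msh4 (1.20 without the filter) passed 2-fold somewhere. Kit, Brdt, Tdrd9, Msh4, Msh5 and Tuba3a changed sign. The number seen on a single array rests on the software's background calls. Normexp does not change these calls, and RefSeq names moved 0 member probes, so it stayed at 11 by construction. Of the genes on the knockout array alone 5 had a bound of at least 2-fold with normexp, against 9. Normexp also lowered Tdrd1 from 2.76 to 1.90, Tdrd5 from 1.98 to 1.35, Smc1b from 3.13 to 2.37, Dmc1 from 2.26 to 1.63 and Tex14 from 3.49 to 2.66; without the filter Tdrd12 was 2.36. The cause of these shifts was not tested. No paired analysis was possible because each group has 1 array. Dim signals limit Hormad2, Tex11, Mei4, Msh4 and Tdrd9 most, whose lower signal lay under 50.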

Other observations

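Where several probes of a gene were measured, they did not always give the same difference. From the probe nearest the 5′ end of the gene on mm9 to the probe nearest its 3′ end, the log2 difference moved by −0.05 in Dmc1, 0.10 in Kit, 1.00 in Smc1b and 1.02 in Msh5. It moved by 2.95 in Tex101, and in the other direction by −0.81 in Tdrd5, −1.88 in Nanos3 and −2.34 in Brdt. The difference was thus higher towards the 3′ end in Smc1b, Msh5 and Tex101 and lower in Tdrd5, Nanos3 and Brdt, while no direction is read for Dmc1 and Kit. The spot noise of 0.096 comes from repeats of the same probe. It does not measure the spread between probe sequences or at dim signals, so no trend along the gene is read. In Smc1b, Tex101, Nanos3 and Tdrd5, 1 measured probe had a wild type signal under 50. A Tdrd5 probe shares at least 25 bases, on the opposite strand, with a probe of Zfp457, whose own difference was −0.21, while that Tdrd5 probe gave 2.38; no other probe of the 50 genes shares that many bases with a probe of another name.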
